A study of Rattus norvegicus with 14 samples.

Results

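The probes described here were recruited in rat heart by month-long training, in the sense of a detection limit. They had an intensity under 1200 in the untreated heart and 1200 or more in both heart samples of rats trained for 1 month, one without and one with heat. The deposited intensities of these 3 heart samples chose 126 of the 1185 probes on the array (10.6%). Their values in those samples are therefore given as a description, with no test. The other 11 samples were not used to choose them.

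Gene expression was measured in left ventricle of the heart and in soleus, a slow, postural muscle of the hind leg, with total RNA labelled with radioactive phosphorus in dATP. Each tissue was sampled in untreated control rats and in 6 treated groups, with 1 sample per tissue and group, so that a single sample has no replicate error. Long heat was acclimation at 34°C for 1 month and short heat the same for 2 days. Long exercise was treadmill training at 24°C for 1 month and short exercise the same for 3 days. The combined groups had treadmill training at 24°C and acclimation at 34°C, for 1 month (long heat plus exercise) or 3 days (short heat plus exercise). The labels name no strain, age or sex, speak of 3 pools and 6 animals per group, and do not say whether the 6 animals are those of 1 pool. Training here means any group with exercise, and 8 of the 14 samples were trained.

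Endurance training makes the heart pump more blood per beat and is accompanied by growth of the heart muscle, and in slow skeletal muscle it raises the capacity to burn fuel with oxygen. Heat acclimation is a slow adjustment to a warm environment that in rats also changes the working of the heart. Both adaptations are known to involve changes in gene expression. Which genes the probes stand for is not known here, since the files give identifiers alone (702 begin with R and 483 with RG) and the reference gene table held 0 of the 1185. No gene, cell type marker or sequence can therefore be named, and the labelled tissues could not be checked against markers. Of the 126 probes, 66 began with R (52.4%, against 59.2% of all probes).

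Of the 591 probes under the limit in the heart control, 126 were measured, that is at 1200 or more, in both month-long trained hearts. A further 77 were measured after long exercise alone, 73 after long heat plus exercise alone, and 315 in neither. In the opposite direction, 23 of the 594 probes at or above the limit in the heart control were empty in both month-long trained hearts. The same limits applied to other pairs of heart samples, which share the 1 heart control, gave 94 probes for both short trained samples and 59 for both samples with heat alone. The heart control, with 594 probes (50.1%), had the fewest measured of the 7 heart samples, whose highest count was 752 after long exercise. How far the length of these lists follows from that was not tested. The median intensity over the 261 probes measured in all 14 samples was 5969 in the heart control, 6126 after long exercise and 5705 after long heat plus exercise, so the 3 arrays were of similar brightness over bright probes.

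The 126 probes were dim. In the heart control, where a value is given for every probe, their intensity ran from 276 to 1193 with a median of 811. After long exercise it ran from 1201 to 4427 with a median of 2062, and after long heat plus exercise from 1203 to 8585 with a median of 1885. The measured probes that were no members had medians of 3062, 3572 and 3153 in the same 3 samples. The ratio to the control had a median of 2.66 after long exercise and 2.44 after long heat plus exercise, and 74 of the 126 probes were at least 2-fold above the control in both. The ratio of long heat plus exercise to long exercise alone had a median of 0.962 and ran from 0.393 to 4.74 over the 126 probes.

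Many of the probes lay close to the limit. The members nearest below it in the control had intensities of 1193.36 and 1193.44, and the probes just outside, measured in both trained hearts, had 1206 and 1208. The members nearest above the limit in a trained heart had 1201 and 1203, and probes just outside on that side have an empty cell and no value. In the control 31 members lay at 1000 or more and 24 under 600, and 46 members lay under 1500 in at least 1 of both trained hearts. With both trained hearts at 2000 or more, 38 members remained, 7 of them with a control value under 600.

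**Figure D1:**
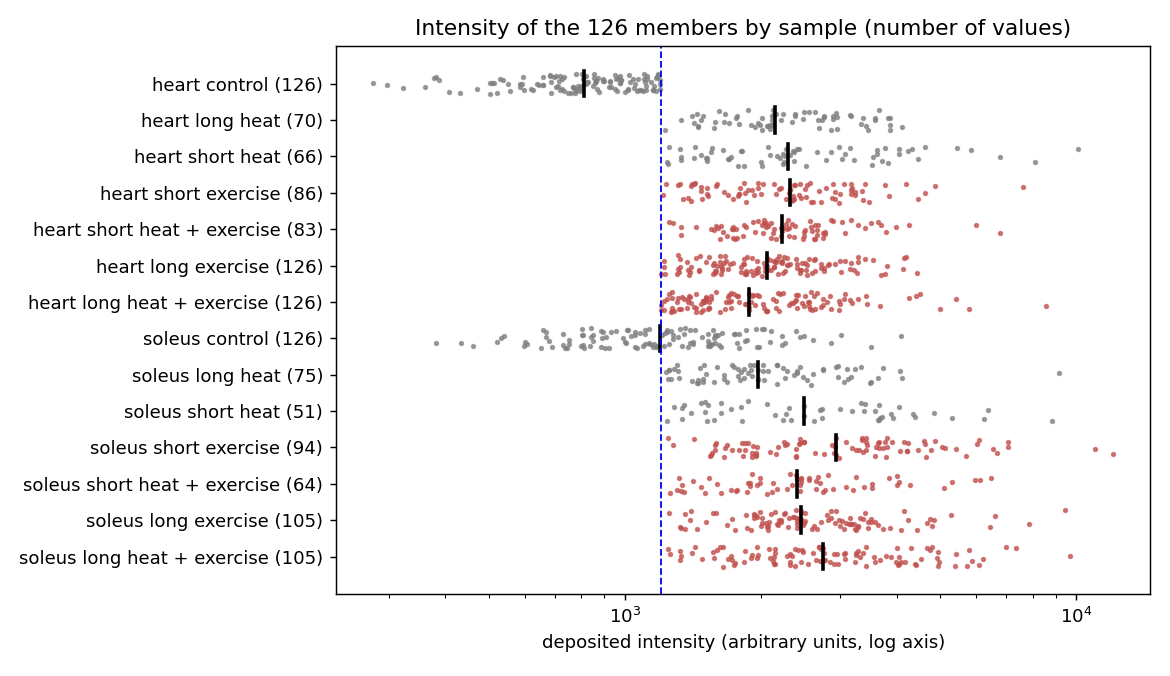
Deposited intensity (arbitrary units, log axis) of the 126 probes in each of the 14 samples, with the number of values in parentheses; each point is a probe, the black bar is the median of the values shown, and the dashed line is the limit of 1200. Red marks trained and grey untrained samples, and treated samples have no values under the limit; the median is 811 in the heart control and 2062 and 1885 in both month-long trained hearts.

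The probe with the highest level in the month-long trained hearts was R067, at 4427 after long exercise and 4500 after long heat plus exercise against 1109 in the heart control. In the other heart samples R067 had 3171 after long heat, 2208 after short heat, 2603 after short exercise and 4254 after short heat plus exercise. In soleus it had 1557 in the control, 2526 after long heat, 3721 after long exercise, 3587 after long heat plus exercise, 5040 after short exercise and 2552 after short heat plus exercise, and it was empty after short heat. R067 was thus measured in every treated heart, trained or not, and the control was its lowest heart sample. For any member measured in every treated heart this order is fixed in advance, since no treated value lies under 1200. Over the 14 samples, among 739 probes measured in at least 7 samples, the patterns most like that of R067 were those of RG217, a member, with a Spearman correlation of 0.913, and of RG387, which is no member, with 0.906. These correlations are descriptions, and the 14 samples share differences in overall brightness.

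Outside the samples that chose them, the recruited probes were measured in both trained and untrained samples, with higher counts in most of the trained ones. In the short trained hearts 86 of the 126 were measured after short exercise and 83 after short heat plus exercise, where 60% and 58.4% of all probes on the array were measured. In the hearts with heat alone 70 were measured after long heat and 66 after short heat, against 56.1% and 51.6% of all probes. The lowest trained count, 83, thus lay above the highest untrained one, 70, in these 4 heart samples. The same held for all probes on the array, whose lowest trained share, 58.4%, lay above the highest untrained one, 56.1%. This order is therefore not particular to the members. As shares these are 68.3% and 65.9% of the members in the short trained hearts, above the shares of all probes, and 55.6% and 52.4% in the hearts with heat alone, close to them.

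In soleus 105 of the 126 probes were measured after long exercise and 105 after long heat plus exercise, against 79.7% and 75.7% of all probes. Short exercise gave 94 and short heat plus exercise 64 in soleus, against 63.7% and 52.6% of all probes. Without training, 63 were measured in the soleus control, 75 after long heat and 51 after short heat, against 61.4%, 58.7% and 44.8% of all probes. Trained and untrained counts overlapped in soleus, because short heat plus exercise, with 64, lay below long heat, with 75. The members' shares of 83.3% in both long trained samples and 74.6% after short exercise lay above those of all probes. The share after short heat plus exercise, also a trained sample, was 50.8% and lay below. Among the untrained samples the control, with 50%, and short heat, with 40.5%, lay below, and long heat, with 59.5%, lay close to all probes. Short heat, with the lowest count of members in soleus, also had the lowest median intensity there over the 261 probes measured in all samples, 3879, and short heat plus exercise had 4813. The soleus control, with 63 members, had 7462. How far the counts follow brightness was not tested.

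Over the 11 samples, 71% ± 12.3 (SD, n = 6) of the 126 probes were measured in a trained sample and 51.6% ± 7.16 (SD, n = 5) in an untrained one, a difference of 19.4 percentage points. The other 465 probes under the limit in the heart control had 34% ± 21.6 (SD, n = 6) in trained and 15.4% ± 2.91 (SD, n = 5) in untrained samples, a difference of 18.6 points. The 594 probes at or above the limit in the heart control stood at 85.8% ± 11.7 (n = 5) and 88% ± 5.96 (n = 6). Counted in points over all 11 samples, the gap was thus of similar size in the recruited probes and in the other dim ones. For the recruited probes it was 13.1 points over the 4 heart samples alone and 23 points over the 7 soleus samples alone. In the 4 heart samples the trained and untrained shares of the other 465 probes overlapped. They were 17.6% after short exercise and 13.8% after short heat plus exercise, against 11.6% after long heat and 18.9% after short heat. By the rule, the 465 lack every dim probe measured in both month-long trained hearts. A lower share in other trained hearts is thus favoured in advance, and the contrast with the members is a description and not support. Much of the gap of the other 465 probes lay in the long trained soleus samples, where 59.1% and 62.4% of them were measured, against 13.8% to 17.6% in the short trained hearts. These were also the samples with the most probes measured of all, 945 and 897, and the part of this in the gap was not tested.

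**Figure D2:**
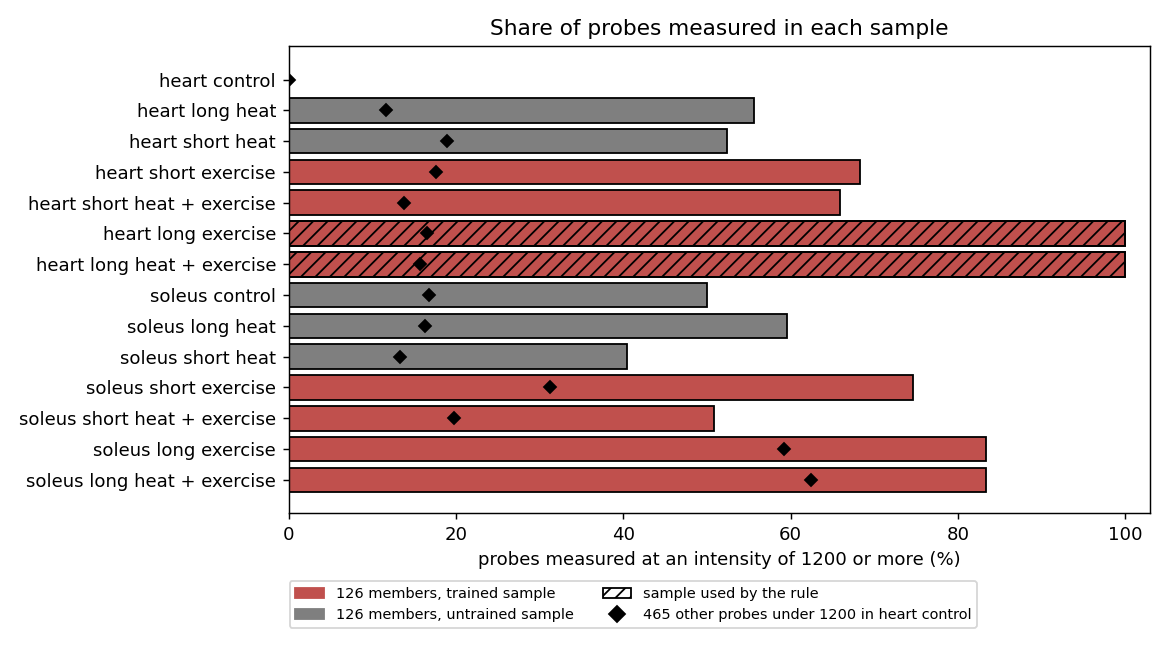
Share of probes measured at an intensity of 1200 or more in each of the 14 samples: bars are the 126 recruited probes, red in trained and grey in untrained samples, and diamonds are the other 465 probes under 1200 in the heart control. Hatched bars, and the heart control at 0, are the samples that chose the probes; elsewhere the bars reach from 40.5% in soleus after short heat to 83.3% in both long trained soleus samples.

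The probes differed in how widely they were measured. A member was measured in a median of 7 of the 11 other samples, and the other 465 probes under the limit in the heart control in a median of 2. Of the members, 11 were measured in at most 3 of these samples, 74 in 6 to 8 and 26 in at least 9, including 3 in all 11. Of the 465, 312 were measured in at most 3 and 9 in at least 9, and 55 in none. The members had been chosen as measured in a pair of samples, so a wider reach than that of the 465 is no independent finding.

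**Figure D3:**
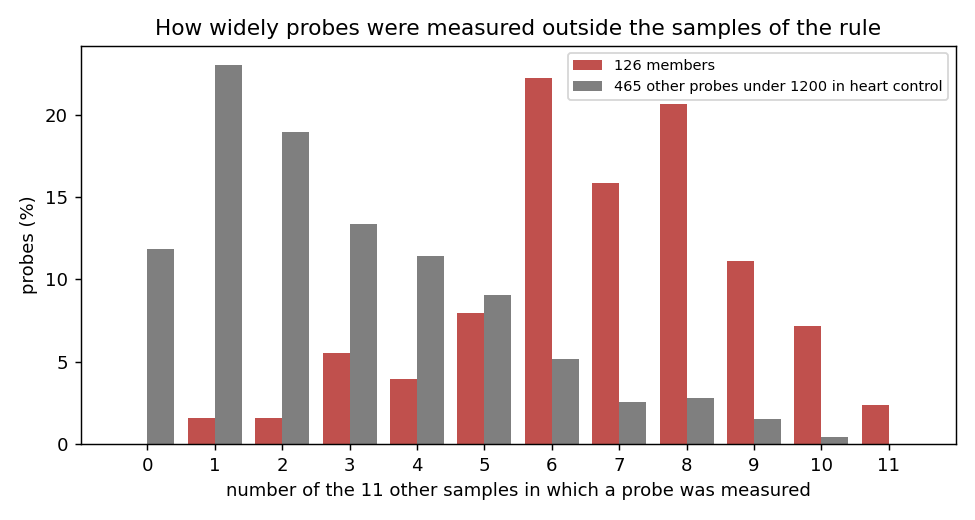
Percentage of probes (vertical axis) by the number of the 11 other samples in which they were measured (horizontal axis), for the 126 recruited probes in red and the other 465 probes under 1200 in the heart control in grey. The members centre on 6 to 8 samples and the others on 1 to 3.

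In the 4 heart samples not used for the choice, 22 members were measured in all, 17 in both short trained samples and neither sample with heat alone, 2 in both samples with heat alone and neither short trained one, and 5 in none. The other 80 had mixed patterns. Both short trained hearts measured 65 members (51.6%) and both hearts with heat alone 41 (32.5%). Among the other 465 probes these counts were 29 (6.24%) and 18 (3.87%). The 17 members of the short trained pattern were also mostly measured in trained soleus, 17 after long exercise, 17 after long heat plus exercise, 16 after short exercise and 14 after short heat plus exercise. In soleus without training they numbered 7 in the control, 4 after long heat and 2 after short heat. These 17 probes were grouped by their own values, and no test was made of them.

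A small set was measured in trained samples alone in both tissues. Of the 126 probes, 8 were measured in all 6 trained and none of the 5 untrained samples outside the choice, a pattern that 10 of all 1185 probes had (0.844%). They were thus measured in each of the 8 trained samples and in none of the 6 untrained ones, and the rule itself makes any probe with that pattern a member. Their intensities reached from 276 to 1068 in the heart control and from 520 to 1110 in the soleus control. In the trained samples their medians lay between 2203 in heart after short heat plus exercise and 3625 in soleus after short exercise. Of the 8, R454 and RG227 had the lowest heart control values and are given here, chosen after their values were seen.

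R454 had an intensity of 276 in the heart control and was empty in heart after long heat and short heat. In trained heart it had 1596 after short exercise, 2242 after short heat plus exercise, 2444 after long exercise and 3059 after long heat plus exercise. In soleus it had 520 in the control, no value after long heat and short heat, and 4602, 3208, 3408 and 3321 after short exercise, short heat plus exercise, long exercise and long heat plus exercise. Every trained sample lay above the limit and every untrained one below it or empty, in both tissues, as the pattern that chose the probe requires. RG227 had 360 in the heart control, and 2142, 2379, 2590 and 2548 in the trained hearts in the same order. In soleus RG227 had 803 in the control and 3648, 3252, 3284 and 4942 in the trained samples, again with empty cells after heat alone. That both probes lay above the limit in the samples with 3 days of training follows from the same choice.

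Whether measured or not was tested for each probe over the 11 samples with Fisher's exact test, two-sided. The smallest p that 6 trained against 5 untrained samples allow is 0.00216, which the 8 probes reached. Adjusted over all 1185 probes this was 0.233 (Benjamini-Hochberg), so no probe passed 0.05 after adjustment. At an unadjusted p under 0.05, 18 members were measured more often in trained samples and 0 less often, against 3.63% and 0.422% of all probes. A probe measured in few or in nearly all of the 11 samples cannot reach such a p. Exactly 6 of them measured 22.2% of the members, against 5.16% of the other 465 probes under the limit in the heart control. The count of 18 is therefore a description and not support. Over the 126 probes, 81 were measured in a larger share of the trained than of the untrained samples and 42 in a smaller one, that is 64.3% and 33.3%, where 49.9% and 23.1% of all probes were. Among the other 465 probes under the limit in the heart control these shares were 70.8% and 17.4%.

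**Figure D4:**
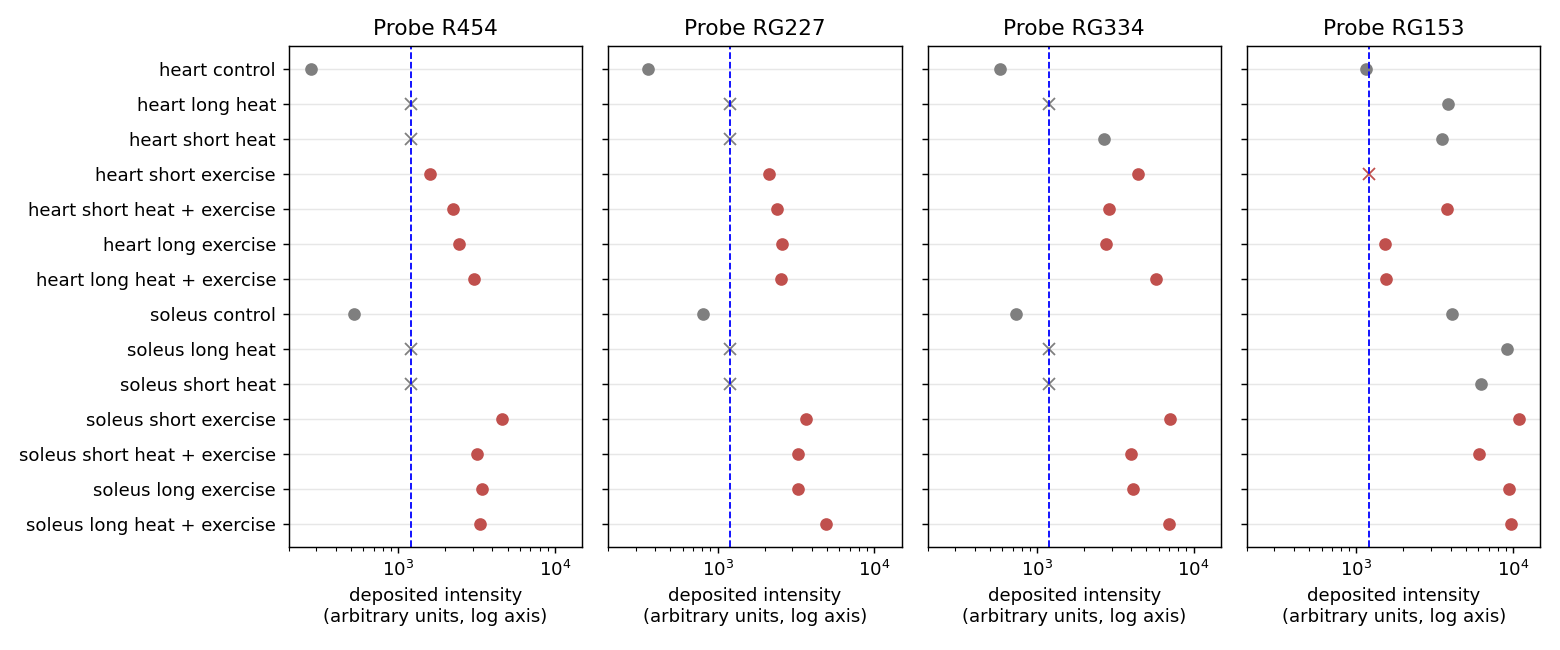
Deposited intensity (arbitrary units, log axis) of probes R454, RG227, RG334 and RG153 in the 14 samples, with trained samples in red and untrained ones in grey; crosses at the dashed limit of 1200 mark empty cells, which hold no value. R454 and RG227 lie above the limit in the 8 trained samples and below it or empty in the 6 others, whereas RG153 is highest in soleus with or without training.

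Levels were compared over the 11 samples with limma on normalized intensity, as log2(intensity + 1219), with tissue, heat and duration in the model and values under a common floor of 2040 raised to it. Effects on this scale understate changes of dim probes. To be tested, a probe had to exceed the floor in 6 or more of the 11 samples, and 32 of the 126 members and 509 of all probes did. The other 94 members did not pass this filter. No member passed a Benjamini-Hochberg adjusted p of 0.05 for exercise, and of the 509 probes 1 was higher (0.196%) and 0 lower (0%). At an unadjusted p under 0.05, 12 members were higher with exercise and 1 lower, against 11.6% and 7.86% of the tested probes. The median effect was 0.16 over the 32 members and -0.01 over all 509. A member could enter through its trained samples alone, of which there were 6, so this count is a description and not support. Of the 32 members, 4 lay above the floor in no untrained sample.

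Of the members, RG099 and R325 had the lowest p on the higher side. RG099 had a lowest, median and highest intensity of 3481, 6258 and 7863 in the 6 trained samples. In the untrained ones it had 2223 in the soleus control, 4111 and 3858 after long heat in soleus and heart, and 3335 and 2001 after short heat. Its exercise effect was 0.68 ± 0.16 (SE, limma adjusted p = 0.0757), and the trained and untrained intensities overlapped. R325 had a lowest, median and highest intensity of 2060, 3737 and 4784 in the 6 trained samples, and of the untrained ones it was measured only in the soleus control, at 1327, and in soleus after long heat, at 1409. Its trained and untrained values did not overlap in these 11 samples, but in the heart after long heat plus exercise, which the choice used, it had 1242, below both untrained soleus values. Its effect was 0.48 ± 0.12 (SE, limma adjusted p = 0.0757), and it was empty in the other 3 untrained samples. R325 lay above the floor in no untrained sample and passed the filter through its 6 trained samples alone, so its effect is a description and not support. On the lower side RG225 had an effect of -0.45 ± 0.19 (SE, limma adjusted p = 0.202), with values in 4 of 6 trained and 4 of 5 untrained samples. Without the heart short heat sample 4 members passed, all with higher levels in trained samples, among 27 probes called.

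In soleus alone, a tissue with its own control, 36 members were tested of 507 probes. No member and no other probe passed an adjusted p of 0.05 in limma, higher or lower (0%). At an unadjusted p under 0.05, 17 members were higher and 1 lower with exercise, against 14.4% and 8.88% of the tested probes, and the median effect was 0.33 over the members and -0.02 over all. Of these 36 members, 17 lay above the floor in no untrained soleus sample and entered through the 4 trained ones alone, which favours a higher level with exercise in advance, so these counts and the median are a description and not support. The model has 3 residual degrees of freedom. Under median scaling 3 members passed, and without normalization 24 did, where the median of all tested probes shifted by 0.14.

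RG334 had the lowest p of the members in soleus, where it passed the filter through its trained samples alone. Its soleus intensity was 7054 after short exercise, 4010 after short heat plus exercise, 4080 after long exercise and 7002 after long heat plus exercise. In untrained soleus RG334 lay at 737 in the control and was empty after both heat treatments. Its exercise effect in soleus was 0.99 ± 0.18 (SE, limma adjusted p = 0.0681). In heart RG334 was measured after short heat, at 2667, an untrained sample. RG356 had an effect of 0.74 ± 0.13 (SE, limma adjusted p = 0.0681), with 3533 to 5691 in the 4 trained soleus samples, 1575 in the control, 1889 after long heat and an empty cell after short heat. After normalization RG356 too lay under the floor in every untrained soleus sample and passed the filter through its trained samples alone. RG053 was the member with the lowest p on the lower side, at -0.48 ± 0.13 (SE, limma adjusted p = 0.0979). It was measured in 3 of 3 untrained soleus samples, at 3510, 3722 and 2242, and in the trained ones only after long exercise, at 2814, and long heat plus exercise, at 1327.

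**Figure D5:**
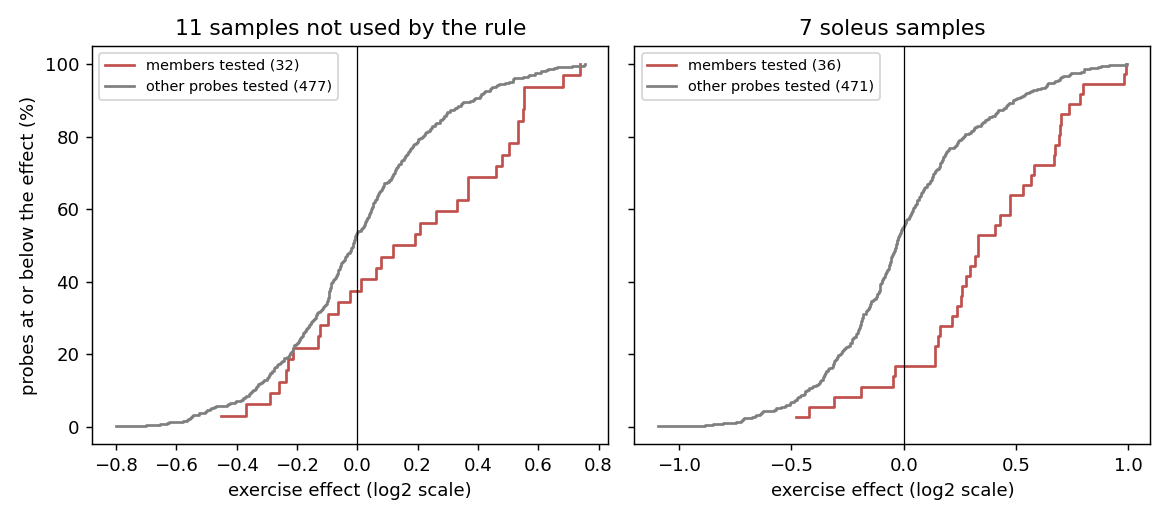
Cumulative percentage of probes (vertical axis) by their exercise effect on the log2 scale (horizontal axis), over the 11 samples not used for the choice on the left and the 7 soleus samples on the right, for tested members in red and other tested probes in grey. The medians of the members are 0.16 and 0.33, and members under the floor in most samples are not included.

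The rule applied to soleus, with its own control and its own month-long trained samples, gave 212 probes, of which 53 were also recruited in heart. This is 42.1% of the heart list and 25% of the soleus list. By the soleus limits 17.9% of all probes are recruited. Of the 63 members under the limit in the soleus control, 53 were measured in both long trained soleus samples (84.1%), 9 in one and 1 in neither. Of the 387 other probes under the limit in both controls, 156 were (40.3%). These belong to the 465 other probes under the limit in the heart control, which were dimmer than the members. Median intensities of the 465 were 368 in the heart control and 595 in the soleus control, against 811 and 1193 for the members. The part of this in the contrast was not tested. The other 63 members were at or above the limit in untrained soleus already, and 11 of them were empty in both long trained soleus samples. The members' intensity in the soleus control had a median of 1193, higher than in the heart control for 112 of 126 probes. The members were chosen as low in the heart control, and over all 1185 probes the soleus control was higher for 87.7%.

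For heat, 0 of 509 probes passed in limma, higher or lower (0%), and at an unadjusted p under 0.05 there was 1 member higher and 0 lower, against 0.982% and 2.75% of the tested probes. RG153 had a heat effect of 0.44 ± 0.20 (SE, limma adjusted p = 0.88). For long against short treatment, 0 of 509 passed in either direction (0%), and at an unadjusted p under 0.05 there was 1 member higher and 1 lower, against 5.89% and 2.16%. R484, which is 1 of the 8 probes measured in trained samples alone, had a difference of 0.33 ± 0.14 (SE, limma adjusted p = 0.586), long minus short. On the lower side RG358 had -0.59 ± 0.26 (SE, limma adjusted p = 0.586). In these 11 samples the only long heart sample is that of long heat.

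Whether the recruited probes differ in level between the tissues was tested within the 4 conditions that the choice did not use, that is heart and soleus after long heat, short heat, short exercise and short heat plus exercise. In limma, soleus exceeded heart for 6 of 549 probes (1.09%) and lay below it for 16 (2.91%), and of the 45 members tested 1 was higher and 0 lower. At an unadjusted p under 0.05, 6 members were higher and 2 lower, against 6.92% and 9.29%. A probe could enter through the 4 samples of 1 tissue alone, and the members had been chosen by their heart values. These unadjusted counts are therefore a description and not support. The called member was RG153, at 1.23 ± 0.16 (SE, limma adjusted p = 0.00956). RG153 had 9176 in soleus and 3856 in heart after long heat, 6241 and 3531 after short heat, and 6107 and 3797 after short heat plus exercise. After short exercise it had 10981 in soleus and an empty cell in heart, so soleus was higher in 4 of 4 conditions. In heart after long exercise and long heat plus exercise RG153 had 1531 and 1536, below its values in both hearts with heat alone, although it had been chosen as recruited there from 1155 in the control. Without the short exercise condition its adjusted p was 0.0772 in limma, and without short heat plus exercise 0.0507. R344 came next, with a difference of 0.70 ± 0.16 (SE, limma adjusted p = 0.0608). Its 4 soleus samples all lay above the floor, which sufficed for the filter, and in heart only short heat plus exercise did. On the lower side R068 had -0.43 ± 0.15 (SE, limma adjusted p = 0.194), and its 4 heart samples alone sufficed for the filter.

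Whether the exercise effect differed between soleus and heart was tested as a difference of the effects over the 11 samples. Of 509 probes 0 passed in limma. At an unadjusted p under 0.05 there were 39, with 18 higher in soleus (3.54%) and 21 lower. Among the 32 members 5 were higher and 0 lower. A member could enter through its trained samples alone here too, so this count is a description and not support. The lowest adjusted p of a member was 0.504.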

How the data were processed

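Linear intensities in arbitrary units were deposited for each sample. The deposited files of 4 samples, recorded under the unit other, hold the same kind of value with some probes lacking a second cell. Per the labels' protocols, RNA was extracted with Tri-Reagent and labelled by a Clontech protocol. The image software, background subtraction, scaling and any averaging of pools were not given in the sources used here. No treated value lies under 1200 and lower cells are empty, whereas both controls hold a value for every probe. A probe is measured in a sample at 1200 or more. The deposited series table holds a second, relative intensity with the same empty cells, whose reference is unknown, and was an alternative.

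For the fits, cells without a measured value received 1200 and quantile normalization was applied across the 14 samples. Values under the common floor of 2040 (the highest of the samples' lowest measured values) were raised to it, and log2(intensity + 1219) was fitted with limma 3.58.1 in R 4.3.3, a pseudocount set at the 10th percentile of positive intensities. The floor came from untrained soleus after short heat, where normalization turned 1242 (RG512) into 2063. For R048 it turned 2691 in soleus after long heat plus exercise into 1999, and 1330 after short heat plus exercise into 1755. Deposited intensities therefore do not show which values passed the floor, and how far this shaped the filter and the effects was not tested. Tested probes lay above the floor in at least 6 of 11, 4 of 7 or 4 of 8 samples of a fit. Intensities printed for single probes are the deposited ones. Benjamini-Hochberg adjustment ran over all tested probes, and tests were two-sided. The fits were tested on simulated data in which every cell was measured and no floor was set. That test therefore does not cover the empty cells, the floor or the filter. The members and tests were chosen with earlier results of these data known. Named were up to 2 members per direction with the lowest p in a comparison, and the member with the highest level in the trained hearts. No label states that the samples are of separate animals, and the p-values cover only the spread among the samples at hand. The small number of arrays limits precision.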

Additional observations from a re-analysis of the deposited data

How the results depend on the processing

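The number of recruited probes depends on the limit. It fell from 126 to 80 with 1500 and to 38 with 2000 as the limit in the trained hearts, and to 24 with 600 as the limit in the control. With the common floor after quantile normalization as the limit it was 47, of which 37 were among the 126, and after median scaling, an alternative chosen after seeing the data, 98, of which 48 were. In soleus the same rule gave 212 probes, 125 with 1500 and 57 with 2000. The difference in the share of members measured between trained and untrained samples, 19.4 points, was 22.2 with a limit of 2000 and ran from 16.7 to 23.5 with 1 sample left out. In settings chosen after seeing the data it was 16 without short heat, 24.6 without the soleus control and long heat samples, and 13.3 without the long trained soleus samples.

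For exercise over 11 samples the 0 members called became 17 without normalization, 6 with the floor at 1200 and 6 without both short heat samples (chosen after seeing the data), and ran from 0 to 4 with 1 sample left out, while the other alternatives gave 0. Without normalization the median of all tested probes shifted by 0.14 for exercise, -0.16 for heat and 0.25 for long minus short. In soleus the 0 members became 3 under median scaling and 24 without normalization, and stayed at 0 with any 1 soleus sample left out. Of all probes, 40 were called for exercise without normalization (39 higher, 1 lower) against 1, and in soleus 74 (64 higher, 10 lower) against 0. Soleus against heart gave 2 members under median scaling and 0 to 4 with 1 condition left out, with 0 to 48 probes called. Heat and long against short gave 0 members in all alternatives run. Of the named probes' alternatives, 243 stayed on the same side of the threshold with the same sign, 12 passed it, 2 lost it and none changed sign. The cause of these changes was not tested. No paired analysis was possible because each group has 1 sample, other than the matching of soleus and heart within conditions, which is part of that comparison itself.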
